A study of Mus musculus with 6 samples.

Results

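Translation initiation and elongation factors are the soluble proteins that bring ribosome, initiator tRNA and mRNA together and then move the ribosome along the message. The genes described here are the rows of the deposited count table whose mouse symbol starts with Eif or Eef, without the Eif2ak kinases, Eef1e1 and symbols that end in -ps. There were 63 such genes among the 24181 genes of the table, 50 named Eif and 13 named Eef. Bulk 3'-end RNA sequencing was done on MC38, a mouse colon adenocarcinoma cell line kept in culture in DMEM. The labels give 6 samples, 3 of parental cells with genotype WT and 3 of MC38 cells with STING-N153S, a substitution in the innate immune adaptor STING, and they name no treatment for either. The series compares these genotypes, but samples with STING-N153S are not analysed here, since the names of the table's columns do not show which are theirs, so every value below is from parental cells and no difference between genotypes is given. All samples come from 1 cell line, and the deposited annotation numbers the 3 parental samples as biological replicates without saying whether they were separate cultures.

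In initiation, eIF2 carries the initiator tRNA to the small ribosomal subunit, eIF1 and eIF1A keep that subunit open for scanning, eIF3 bridges it to the mRNA, and eIF4F recruits the capped 5' end. In the cytoplasm 4E-BP proteins block eIF4F assembly until mTORC1 phosphorylates them, and the eIF2 kinases slow initiation by holding eIF2 on its exchange factor eIF2B. In elongation, eEF1A delivers aminoacyl-tRNA, the eEF1B complex recharges it with GTP, eEF2 moves the ribosome by a codon, and eIF5A relieves ribosomes that stall.

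Library totals were 3358908 counts in parental replicate 1, 4020023 in replicate 2 and 3210024 in replicate 3. Levels are given as CPM, which scales a gene's count to the total of its library, as mean ± SD over these 3 libraries. Each counted fragment comes from near the 3' end of a transcript, so counts do not grow with transcript length and were not divided by it. They can still depend on how well a 3' end is primed, amplified and matched to a single gene, and this limits every comparison of levels between genes. The mesenchymal genes Vim and Sparc stood at 3058 ± 176 and 545 ± 26.1 CPM, while the leukocyte gene Ptprc had 1 count, the macrophage genes Cd68 and Lyz2 had 10 and 0 counts, and the endothelial gene Pecam1 had 2. The epithelial markers Epcam and Cdh1 and the T cell marker Cd3e were not analysed here, so the epithelial origin that the labels give was not checked.

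The factors together took 75693, 91479 and 72501 counts in replicates 1 to 3. This was 2.25% of the first library, 2.28% of the second and 2.26% of the remaining one, with a mean of 2.26% ± 0.0116 (SD, n = 3). The exact (Clopper-Pearson) 95% intervals of the 3 shares, which cover counting error only, ran from 2.24% to 2.27%, from 2.26% to 2.29% and from 2.24% to 2.27%. A count was found for 62 of the 63 genes and in all 3 libraries for 60. With their means, 60 factors reached 1 CPM, 58 reached 10 CPM, 43 reached 100 CPM and 3 reached 1000 CPM. Over all genes of the table the same levels were reached by 49.5%, 31.2%, 8.54% and 0.542%. The median factor stood at 248.7 CPM, against 0.941 CPM for all genes, 1549 CPM for 76 ribosomal protein genes and 154 CPM for 20 cytosolic aminoacyl-tRNA synthetase genes. The 10 highest factors, Eif5a, Eef1g, Eif2s2, Eif4a1, Eif1, Eef2, Eef1d, Eif6, Eif5 and Eef1b2, held 46.8% of all counts of the factors.

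**Figure D1:**
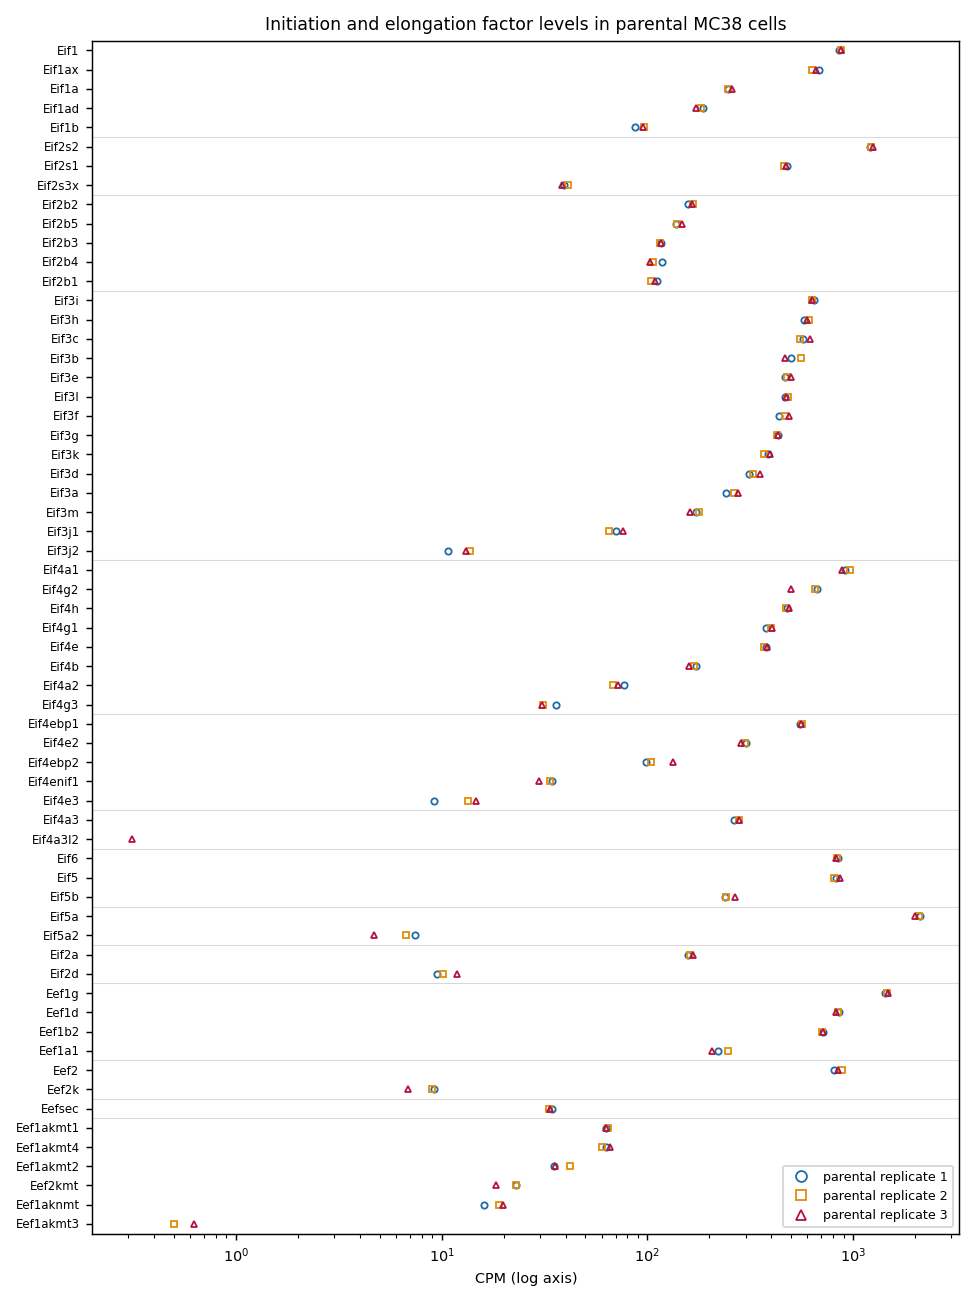
Level of each translation factor with a count in the 3 parental libraries, in CPM on a log axis, with a point for each library and the factors grouped by role. Eif5a is the highest at 2069 CPM, the 5 eIF2B genes sit close together between 108 and 163 CPM, and Eif4a3l2 has a point for 1 library only; libraries at 0, and Eif4a3l1 with no count at all, are not drawn on the log axis.

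The eIF1 and eIF1A genes, whose products hold the small subunit ready for scanning, were Eif1, Eif1b, Eif1ax and Eif1a. Eif1ad was listed with them by its name and shared domain, not for a known part in scanning. None of these 5 genes varied between libraries beyond counting noise after adjustment. Eif1, which keeps the start codon from being chosen too early, was the highest of them at 853, 869 and 873 CPM (chromosome 11, 100319949 to 100322099, GRCm38.p6). Its paralog Eif1b was the lowest at 87.5, 95.8 and 94.7 CPM. Eif1 exceeded Eif1b by 9.35 ± 0.356 times within a library, and the libraries of the pair did not overlap. Eif1ax, the X-linked eIF1A gene, gave 686, 633 and 664 CPM, and the second eIF1A gene, Eif1a on chromosome 18, gave 245, 246 and 259 CPM. The X-linked copy was thus the higher in 3 of 3 libraries, by 2.64 ± 0.131 times. Eif1ad, which shares a domain with eIF1A, had a mean of 180.4 ± 6.56 CPM. Of the 50-base stretches at the 3' end of Eif1 transcripts, 27.4% also occur in transcripts of other genes. Part of its counts may therefore be hard to place, and this was not tested.

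The 3 eIF2 subunits differed widely in level. Eif2s2, the beta subunit, was the third highest of all factors at 1209.9, 1215 and 1251 CPM (chromosome 2, 154871410 to 154892906). Eif2s1, the alpha subunit and the target of the eIF2 kinases, gave 479.6, 463 and 470.1 CPM. The gamma subunit Eif2s3x, which binds GTP and the initiator tRNA, gave only 39.3, 41.3 and 38.6 CPM (chromosome X, 94188709 to 94212651). The order beta, alpha, gamma was the same in every library, with Eif2s2 at 2.60 ± 0.0717 times Eif2s1 and Eif2s1 at 11.9 ± 0.564 times Eif2s3x. No eIF2 subunit passed the test of variation between libraries. For Eif2s3x 39.7% of its 3'-end stretches also occur in transcripts of 1 other gene, Gm2223, and for Eif2s2 26.1% occur in Gm9892. The part of this in the levels was not tested. The Y-linked homologue Eif2s3y was not analysed here.

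The 5 subunits of eIF2B, the exchange factor that returns eIF2 to its GTP form and that phosphorylated eIF2 inhibits, lay close to each other. Eif2b2 was the highest at 157, 166 and 164 CPM and Eif2b1 the lowest at 111, 104 and 109 CPM, a span of 1.51 times. Between them stood the catalytic subunit Eif2b5 at 142 ± 5.15 CPM, Eif2b3 at 116 ± 1.15 CPM and Eif2b4 at 109 ± 7.58 CPM. Eif2b1 and Eif2b4 did not differ beyond their spread, while Eif2b2 and Eif2b5 were above the other 3 subunits in all libraries. Each eIF2B gene had lower counts than Eif2s1, and none shared a 3'-end stretch with another gene.

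The 12 core subunits of eIF3, the scaffold that binds the small ribosomal subunit, ranged from 171 to 635 CPM, a span of 3.72 times. Eif3i, a subunit of the module that also holds Eif3b and Eif3g, was the highest at 646, 628 and 629.9 CPM (chromosome 4, 129591974 to 129600648). Eif3m was the lowest at 172, 179 and 161 CPM, and Eif3a, the largest scaffold subunit, was next at 241, 265 and 274 CPM. From the top downwards Eif3i was followed by Eif3h at 595 ± 19.3, Eif3c at 579.7 ± 30.7, Eif3b at 508 ± 45.3, Eif3e at 482 ± 17.1, Eif3l at 474 ± 7.42, Eif3f at 464 ± 25.6, Eif3g at 429.8 ± 3.47, Eif3k at 382 ± 13.1 and Eif3d at 329.9 ± 19.7 CPM. Several neighbours in this order, such as Eif3e, Eif3l and Eif3f, had overlapping libraries. Against the median eIF3 subunit of each library, Eif3i stood at 1.43 ± 0.0507 and Eif3m at 0.385 ± 0.0239. The loosely attached subunit eIF3j has a pair of genes in the mouse: Eif3j1 gave 70.3, 64.9 and 76.01 CPM and Eif3j2 gave 10.7, 13.7 and 13.1 CPM. Eif3j1 exceeded Eif3j2 by 5.70 ± 0.91 times. Of the 3'-end stretches of Eif3j2, 85.8% also occur in Eif3j1 transcripts, while no 3'-end stretch of Eif3j1 occurs in another gene. The Eif3j2 level, and with it the ratio, is therefore uncertain. Shared stretches above 20% were also found for Eif3m (39.0%), Eif3h (26.8%) and Eif3e (24.5%).

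**Figure D2:**
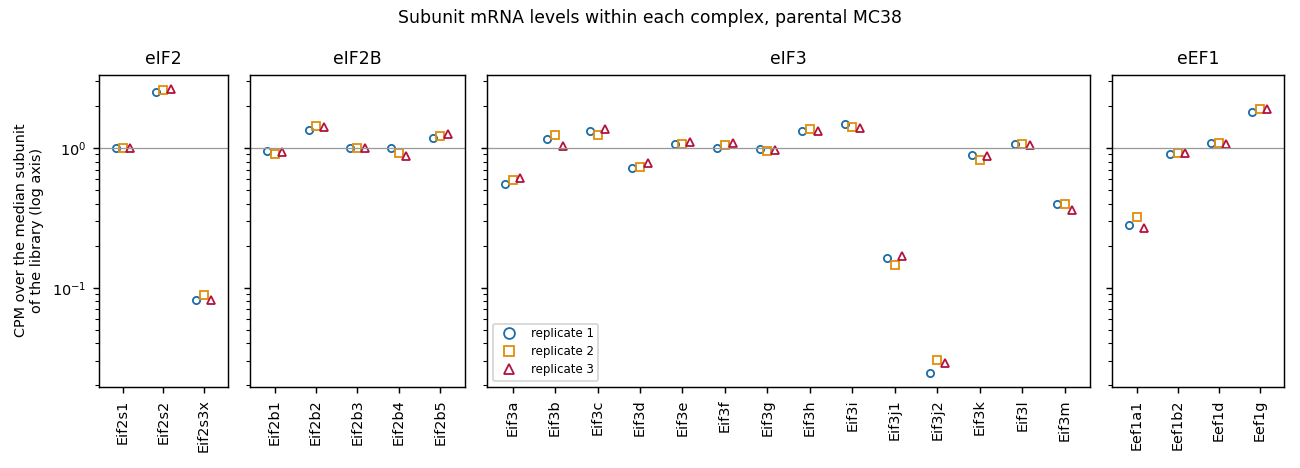
Level of each subunit of eIF2, eIF2B, eIF3 and eEF1 divided by the median subunit of the same complex, on a log axis, with a point for each of the 3 parental libraries. The eIF2B subunits stay near 1, whereas Eif2s3x (0.0844), Eif3j1 (0.159), Eif3j2 (0.0282) and Eef1a1 (0.290) lie far below the median of their complexes.

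In eIF4F, the complex on the mRNA cap, the helicase gene Eif4a1 was the highest at 916, 961 and 881 CPM (chromosome 11, 69666936 to 69672423). The scaffold Eif4g1 gave 378, 397 and 405 CPM and the cap-binding protein Eif4e gave 376, 367 and 380.1 CPM. Libraries of Eif4g1 and Eif4e overlapped, while Eif4a1 was 2.34 ± 0.145 times Eif4g1 and 2.46 ± 0.152 times Eif4e. The second eIF4A gene, Eif4a2, gave 76.8, 68.2 and 71.96 CPM, so Eif4a1 was 12.8 ± 1.18 times as high. Of the 3'-end stretches of Eif4a2 20.8%, and of those of Eif4e 18.4%, also occur in transcripts of other genes, while Eif4a1 shares none. The part of this in the ratios was not tested. The second eIF4G scaffold, Eif4g3, was the lowest of this group at 36.02, 31.1 and 30.8 CPM, and Eif4g1 was 12.1 ± 1.44 times as high. Of the helicase cofactors, Eif4h stood at 480.2 ± 8.34 CPM and Eif4b at 167 ± 6.23 CPM. Eif4g2, a relative of eIF4G that does not bind eIF4E, gave 669, 652 and 497 CPM and was thus above Eif4g1 in 3 of 3 libraries. Its excess over Eif4g1 was 1.77 and 1.64 times in replicates 1 and 2 and 1.23 times in replicate 3.

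The promoters of the 3 eIF4F core genes are shown because each holds CACGTG, the E-box that MYC and related factors bind, in the window from 250 bases before to 50 bases after the start of a RefSeq transcript on GRCm38.p6. Each line gives 30 bases on the strand of the gene, with the E-box in capitals. The windows lie at chr11:69672595-69672624 (minus strand) for Eif4a1, chr3:138527028-138527057 and chr3:138527192-138527221 (plus) for Eif4e, and chr16:20672661-20672690 and chr16:20672730-20672759 (plus) for Eif4g1.
Eif4a1: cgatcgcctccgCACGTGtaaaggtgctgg
Eif4e, upstream box: ctcgccagcgacCACGTGatcacttttttt
Eif4e, downstream box: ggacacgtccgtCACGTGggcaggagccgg
Eif4g1, upstream box: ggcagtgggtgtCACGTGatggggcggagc
Eif4g1, downstream box: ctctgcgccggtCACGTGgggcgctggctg
The box of Eif4a1 begins 189 bases before the transcript start, those of Eif4e 228 and 64 bases before the downstream one of its 2 listed starts, and those of Eif4g1 54 bases before and at base 16 of the transcript. The window of the upstream Eif4e start does not hold the letters, so both boxes lie inside the gene as counted from that start. The helicase relative Eif4a2 has a listed promoter too, without these letters.

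A promoter was listed for 48 of the 63 factors, and 14 of the 48 (29.2%) held CACGTG. The share was 8.09% of the 27025 genes with a listed promoter, 12.2% of those at 1 CPM or more in these cells and 15.1% of those at 100 CPM or more. Besides the eIF4F core, the other holders were Eif4h, Eif5a, Eif5a2, Eif1b, Eif3a, Eif3f, Eif3k, Eef2, Eef2k, Eef1akmt4 and Eef1aknmt. They therefore include both high genes, such as Eif5a, and low ones, such as Eef2k. The ETS core CCGGAAG, sought on both strands, was in 33.3% of the factors against 9.93% of all genes, but against 28.5% of genes at 100 CPM or more. TATAAA, also sought on both strands, was in 8.33% of the factors, against 15.7% of all genes and 9.22% of those at 100 CPM or more. These shares are descriptions of letters in a window, with no test, and several genes have more than 1 listed start.

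Among the relatives and inhibitors of eIF4E, the inhibitor Eif4ebp1 was the highest at 553, 562 and 559.8 CPM (chromosome 8, 27260327 to 27275656). It exceeded Eif4e, the protein it binds, by 1.49 ± 0.0354 times. Its paralog Eif4ebp2 gave 98.2, 104 and 133 CPM, so Eif4ebp1 was higher by 5.62, 5.42 and 4.20 times. The ratio was lowest in replicate 3, in which Eif4ebp1 lay between its other values and Eif4ebp2 was above both of its own. Eif4e2, a cap-binding relative known for repressing the mRNAs it binds, gave 301, 297 and 287 CPM, and Eif4e was 1.27 ± 0.0479 times as high. The eIF4E transporter Eif4enif1 stood at 32.5 ± 2.51 CPM. Eif4e3 was the lowest of the group at 9.23, 13.4 and 14.6 CPM, and its exons overlap those of Gm20696 on the same strand. Eif4ebp3 and Eif4e1b were not analysed here.

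Eif4a3, the eIF4A relative in the exon junction complex, gave 263, 279.8 and 278 CPM. Of its close mouse relatives, Eif4a3l2 had 1 count in all and Eif4a3l1 had none, which allows at most 0.283 CPM over the 3 libraries. Since 56.2% and 61.5% of the 3'-end stretches of Eif4a3l1 and Eif4a3l2 occur in each other, in Eif4a3 or in Gm5576, such reads could have been assigned elsewhere or left out.

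Of the factors that act when the ribosomal subunits join, Eif6, which keeps a large subunit from joining too early and takes part in its maturation, gave 845, 836 and 823 CPM. Eif5, the GTPase activator of eIF2, gave 828, 803 and 863 CPM and overlapped Eif6. Eif5b, the GTPase that joins the subunits, was the lowest of the 3 at 238, 242 and 267 CPM. Outside the standard route, Eif2a, which is distinct from the eIF2 alpha subunit, gave 158, 160.4 and 166 CPM, and Eif2d, which takes part in ribosome recycling, gave 9.53, 10.2 and 11.8 CPM.

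Eif5a, the hypusine-carrying factor, was the highest of all 63 factors at 2113, 2098 and 1996 CPM (2069 ± 63.9) and ranked 42 among all genes of the table (chromosome 11, 69916712 to 69921958). Its paralog Eif5a2 gave 7.44, 6.72 and 4.67 CPM. Eif5a was higher by 284, 312 and 427 times in replicates 1 to 3, and the pooled ratio of 327 had an exact 95% interval from 258 to 423, since Eif5a2 rests on 67 counts in all. Dhps and Dohh, the enzymes that make the hypusine residue, stood at 60.4 ± 3.37 and 191 ± 13.3 CPM.

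**Figure D3:**
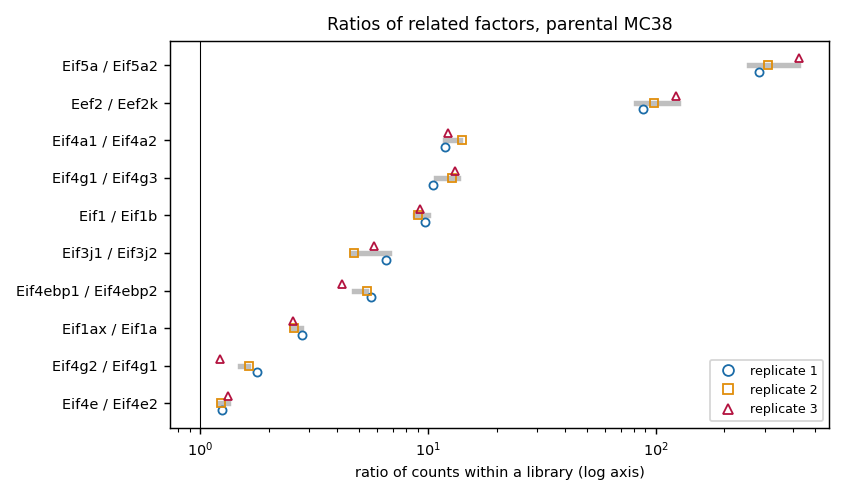
Ratio of the counts of 2 related factors within a library for 10 pairs, on a log axis, with a point for each of the 3 parental libraries and a grey bar for the exact 95% interval of the pooled ratio. The pairs run from Eif4e over Eif4e2 (mean 1.27) to Eif5a over Eif5a2 (mean 341). All points lie above 1, but Eif1ax over Eif1a and Eif4g2 over Eif4g1 were turned round after the data were seen so that they do.

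In the eEF1 complex the eEF1B subunit Eef1g was the highest at 1423, 1464 and 1471 CPM (chromosome 19, 8967041 to 8978180). It was followed by the exchange subunits Eef1d at 839 ± 11.7 CPM and Eef1b2 at 712 ± 3.08 CPM. Eef1g exceeded Eef1d by 1.73 ± 0.0538 times and Eef1b2 by 2.04 ± 0.0435 times. For Eef1d 17.2% and for Eef1b2 16.1% of the 3'-end stretches also occur in transcripts of other genes. Eef1a1, the GTPase itself and the gene of an abundant protein in most cell types, was the lowest of the complex at 221, 248 and 207 CPM (chromosome 9, 78478453 to 78481724). Eef1g exceeded it by 6.49 ± 0.6 times, and Eef1a1 was below the other 3 subunits in 3 of 3 libraries. Of the 3'-end stretches of Eef1a1, 70.6% also occur in transcripts of 20 other genes, while Eef1g shares none. The sources used here do not give the handling of reads that match several genes, and the part of this in the low Eef1a1 level was not tested. Exons of Eef1d overlap those of Naprt on the same strand. Eef1a2, the eEF1A gene of muscle and neurons, was not analysed here.

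**Figure D4:**
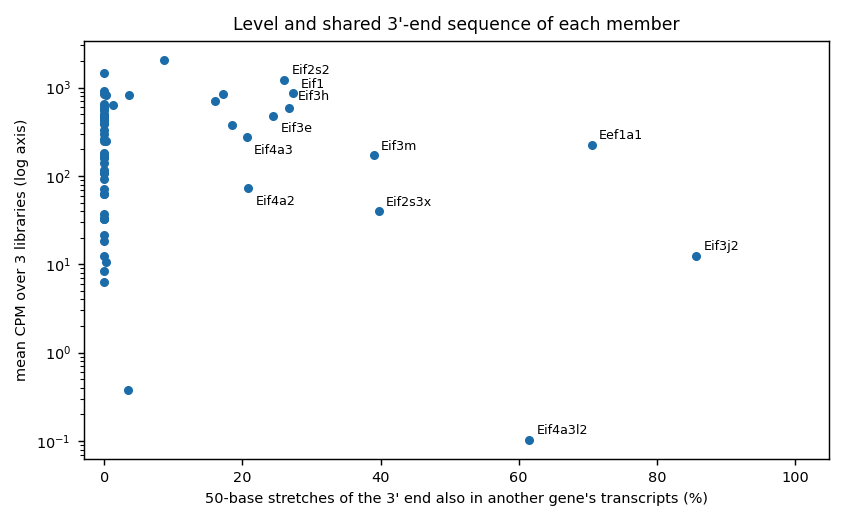
Level of each factor in CPM (mean of 3 parental libraries, log axis) against the percentage of 50-base stretches in the last 400 bases of its transcripts that also occur in transcripts of another gene. Of the 63 factors, 41 share no stretch and 12 share more than 20%, with Eif3j2 (85.8%) and Eef1a1 (70.6%) highest, and Eif4a3l1, which had no count, cannot be placed on the log axis and is not drawn.

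The start of Eef1a1 is shown with those of Eif3f and Eif2s3x because mRNAs of the translation machinery often begin with an oligopyrimidine tract, through which mTORC1 controls their translation. Each line gives the 30 bases before and the 20 bases after the RefSeq start, on the strand of the gene, with the run of C or T letters in capitals from its first C. In Eif2s3x the T letters directly before the capitals belong to the same run. The windows are chr9:78481705-78481754 (minus strand) for Eef1a1, chr7:108934385-108934434 (plus) for Eif3f and chrX:94212632-94212681 (minus) for Eif2s3x.
Eef1a1: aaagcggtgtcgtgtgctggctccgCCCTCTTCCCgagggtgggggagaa
Eif3f: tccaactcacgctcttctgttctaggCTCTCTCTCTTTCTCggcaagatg
Eif2s3x: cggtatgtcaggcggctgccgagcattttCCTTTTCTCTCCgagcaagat
In Eif3f and Eif2s3x the listed start falls inside the tract. These were the 2 factors of 48 (4.17%) whose listed first base is a C followed by at least 4 C or T letters. The share was 3.01% of all genes and 3.69% of those at 100 CPM or more. This count rests on the exact base of the listed start, which can differ from the start used in the cells. The 15 factors without a listed promoter, among them Eef1g, Eef1d and Eif6, could not be counted. In Eef1a1 the tract of 10 letters covers the start without a C at the first base. A tract of at least 8 letters led by C within 10 bases of the start was found for 8 of 48 factors (16.7%), against 9.43% of all genes and 10.8% of genes at 100 CPM or more. The other 5 were Eif2b2, Eif2b5, Eif3l, Eif4e and Eif4enif1. Such a tract need not be where the transcript begins. In Eif4e it ended before the listed start, and in Eif2b2 and Eif3l it began after it. In Eif4enif1 it ended before or began after the start, depending on which listed start was taken. Eif4e and Eif4enif1 held one at only some of their listed starts. Eif3f and Eif2s3x stood at 464 and 39.7 CPM, so the genes with a tract at the start were neither both high nor both low.

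Eef2, the translocase, gave 812, 880.1 and 843 CPM (chromosome 10, 81176631 to 81182509), and its inhibitory kinase Eef2k gave 9.23, 8.96 and 6.85 CPM. Eef2 exceeded Eef2k by 103 ± 18.0 times. Eefsec, which brings selenocysteine-tRNA to the ribosome, gave 34.2, 33.1 and 33.6 CPM. The methyltransferases of the elongation factors were all under 100 CPM. Eef1akmt1, a lysine methyltransferase of eEF1A, was the highest at 63.1, 64.2 and 62.6 CPM, and Eef1akmt4 was level with it at 63.2 ± 2.80 CPM, with exons that overlap Gm49333 on the same strand. Eef1akmt2, Eef2kmt and Eef1aknmt followed at 37.6 ± 3.88, 21.4 ± 2.61 and 18.3 ± 2.00 CPM. Eef1akmt3 had 4 counts in all, with 0, 0.498 and 0.623 CPM, each below the floor of 3 counts in its library. Exons of Eef2kmt, Eif3j1, Eif1ad, Eif5b, Eefsec, Eif2b4, Eif4a2, Eif3d, Eif6, Eef1akmt4, Eef2k, Eif3m, Eif2d, Eif2a and Eif1b overlap those of a gene on the opposite strand, and whether counting used the strand is not stated in the labels or file headers.

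Whether factors moved between the 3 libraries by more than counting noise was tested for each gene with a chi-square test of its counts against scaled library sizes, adjusted by Benjamini-Hochberg over all 11118 genes tested. Such a test compares these libraries, not conditions. Of the 60 factors tested, 4 passed at a false discovery rate of 0.05 (6.67%), and 14 (23.3%) had an unadjusted p under 0.05. Of all genes tested 311, or 2.8%, passed, and 1466 (13.2%) had an unadjusted p under 0.05. Counting noise alone would put a share near 0.05 of the genes under that p. The spread was thus wider than counting noise over the whole table, not only in the factors. High counts make small differences detectable, and among genes at 100 CPM or more 4 of 43 factors (9.30%) passed against 10.1% of all genes at that level. The median chi-square was 1.87 both for the factors and for all genes. The median coefficient of variation of the factors was 3.68%, and 50 of them stayed under 10%. This coefficient falls as counts rise, and most factors have high counts. It was not summarised over all genes, so these values do not set the factors apart.

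The 4 that passed were Eif4g2, Eif3b, Eif4ebp2 and Eif5a, and in each of them replicate 3 was the lowest or the highest library. Eif4g2 (chromosome 7, 111067985 to 111083030) gave 497 CPM in replicate 3 against 669 and 652, which was 0.753 of the mean of the other libraries, with an adjusted p of 3.9e-19 in the chi-square test. Eif3b gave 466 CPM there against 502 and 556, at an adjusted p of 0.000184, which became 0.127 without replicate 2. Eif4ebp2 moved the other way, with 133 CPM against 98.2 and 104 and an adjusted p of 0.00217. Eif5a was 0.948 of the mean of the others in replicate 3, with an adjusted p of 0.0381, which became 0.0537 with plain library totals and 0.086 without replicate 1. Thus 3 of the 4 were lowest and 1 was highest in replicate 3. Of the 311 genes that passed over the whole table, 139 were lowest there and 125 were highest, or 1.25% and 1.12% of all genes tested. Being lowest or highest in replicate 3 was therefore not particular to the factors. Without replicate 3, none of the factors passed the chi-square test, Eif3b having the smallest unadjusted p of these 4 at 0.00273, and 61 of 11126 genes (0.548%) passed. Vim, a mesenchymal gene, also passed and was highest in replicate 3, at 3251 CPM against 2907 and 3014. It was 1 of 125 genes that passed and were highest there, while 139 passed and were lowest. Sparc, the other mesenchymal gene, did not pass (adjusted p = 0.215 in the chi-square test). The part of either gene in these differences was not tested. Eef1a1, at 207 CPM in replicate 3 against 221 and 248, did not pass (adjusted p = 0.0642) but passed with plain library totals, with TMM scaling and without replicate 1.

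**Figure D5:**
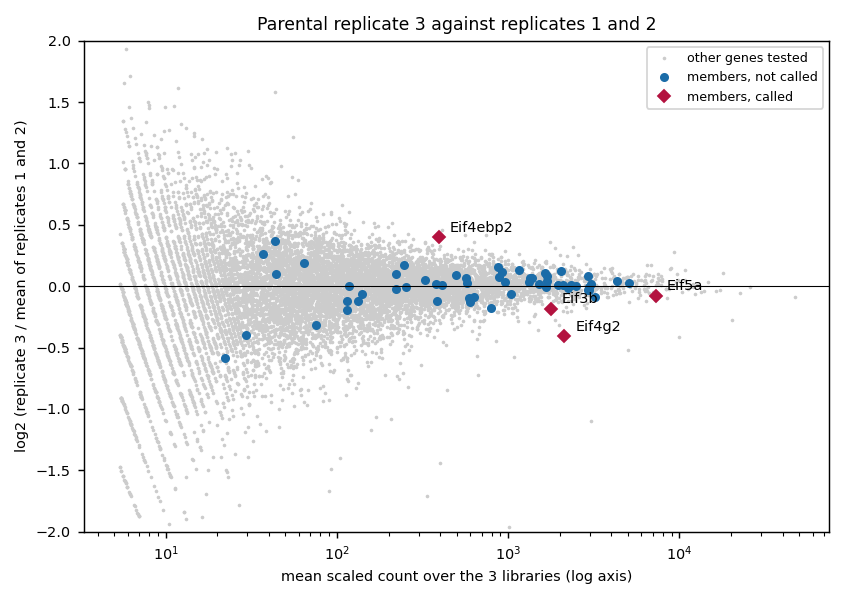
Level in parental replicate 3 over the mean of replicates 1 and 2 (log2 scale) against the mean count of each gene (log axis), with all tested genes in grey and the translation factors in colour; 25 genes lie outside the limits of 2 on the vertical axis. Eif4g2 lies below the other factors of similar count and Eif4ebp2 above them, and most factors lie near 0.

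Genes that act on these factors but do not carry their names were counted in the same libraries, and 1 of the 48 tested (2.08%) varied between libraries beyond counting noise, against 2.8% of all genes tested. That gene was Paip1, a partner of the poly(A)-binding protein and eIF4F, at 195, 149 and 169 CPM and an adjusted p of 0.000313 in the chi-square test. It was highest in replicate 1, and it also passed without replicate 3, but not without replicate 1 or without replicate 2. The highest of these genes were Pabpc1, the cytoplasmic poly(A)-binding protein, at 1123, 1181 and 1205 CPM, Gspt1, the GTPase of termination, at 631, 629.8 and 649.5 CPM, and Etf1, which reads stop codons, at 447, 441 and 419.9 CPM. Among 12 poly(A)-binding proteins and regulators of eIF4 factors, 7 reached 100 CPM and 1 of 12 tested passed. Among 7 termination and recycling genes, 5 reached 100 CPM and none of 7 passed. None of the 6 genes of eIF2 kinases and of the eIF2 phosphatase reached 100 CPM: Eif2ak1 stood at 54.8 ± 1.10 CPM, Eif2ak2 at 24.9 ± 4.40, Eif2ak4 at 15.8 ± 1.62 and Eif2ak3, the kinase of the endoplasmic reticulum, at 1.37 ± 1.20, and none of the 5 tested passed. Of 8 genes of mTORC1 and the S6 kinases only the GTPase Rheb reached 100 CPM, at 285 ± 3.86 CPM, and none of 8 passed, and Mtor stood at 17.5 ± 3.12 CPM. Of 9 genes of hypusine and diphthamide synthesis 2 reached 100 CPM, Dph3 and Dohh, and none of the 7 tested passed. Of 9 mitochondrial translation factors 2 reached 100 CPM, Tufm and Tsfm, and none of 9 passed.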

How the data were processed

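Whole-number counts per gene were deposited by the authors as a single table. Per the file headers, reads were aligned to GRCm38 with STAR 2.7.5b and assigned with GENCODE M25, using Picard 2.18.26 and Drop-seq tools 1.12. The sources used here do not give the handling of molecular identifiers, of strand or of reads matching several genes. Libraries were primed with oligo-dT, per the labels' protocols.

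The 3 columns named wild type were assigned to parental cells from their genotype and replicate number. Another 6 columns are named as 2 sets of 3, and no label says which set belongs to the STING-N153S samples, so none was used and the planned edgeR comparison was not run. The deposited plate annotation was used only to name columns.

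CPM is the count over the library total of 3358908 to 4020023 counts. The floor is 3 counts. Variation between libraries was tested by chi-square against library sizes with median-ratio scaling, in genes whose expected count reached 5 in every library, adjusted by Benjamini-Hochberg at 0.05, and the test was run on simulated data first. The p-values measure only the spread between these samples, which may be technical. Ratios of counts carry exact (Clopper-Pearson) 95% intervals, and intervals and floors cover counting error only. TMM factors came from edgeR 4.0.16 in R 4.3.3, and other steps used Python 3.11.15, pandas 2.3.3, numpy 2.4.6 and scipy 1.17.1.

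Shared 3' ends are stretches of 50 bases in the last 400 bases of GENCODE M21 coding transcripts that occur in a transcript of another gene. Promoter windows and gene positions are from RefSeq (GRCm38.p6). For 3 factors the older symbol was used to find the transcripts.

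Members and lists were chosen with earlier results of these data known. By rule, every counted factor was to be named, with every library given for the highest and lowest of each complex, both genes of each pair and every gene that passed a test. Chosen after the data were seen were the shared-stretch measure, the 5 motifs (the tract near the start after the tract at the start), 8 of the 18 pairs, the turning round of a pair of ratios so that they exceed 1, and the ribosomal and synthetase lists, of which the first was narrowed once.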

Additional observations from a re-analysis of the deposited data

Results flagged for a closer look

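Rows of processed pseudogenes, which carry the names of the factors but were left out of the 63 genes, held counts that no comparison above uses. There were 11 such rows with 136 counts in all. In 3 of them the counts were above the limit that a count of 0 allows in each of the 3 parental libraries, with no control samples to set them against. Eif4a-ps4 stood at 4.23 CPM, Eif1-ps1 at 3.71 CPM and Eif3s6-ps1 at 1.43 CPM. Their parent genes stood far higher, with Eif1 at 865 CPM, and reads of parent and copy can be hard to tell apart at the 3' end; this was not tested.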

How the results depend on the processing

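Without parental replicate 3, the genes varying between libraries fell from 311 to 61 and the factors from 4 to 0; leaving out each replicate in turn gave 61 to 274 genes and 0 to 5 factors. The cause was not tested. The other scalings and minimum counts gave 274 to 322 genes and 4 or 5 factors. Eif5a lost its call with library totals and without replicate 1, and Eif3b without replicate 2. Eef1a1 passed with library totals, with TMM scaling and without replicate 1, and Eif4a1 passed without replicate 1. The summed level of 22626 CPM became 24921 CPM when the 20 highest genes were dropped from the library totals. That step raises every level in a library by the same factor, so it does not change how factors compare within a library. Under it 50 of 62 single levels moved by more than 1 SD, a count that reflects only how small their spread between libraries was. Without each replicate in turn the summed level was 22560.4 to 22671 CPM. With 75-base stretches 7 factors, and with 30-base stretches 15, shared over 20% of their 3' ends, against 12; this was chosen after seeing the data. Pooling counts moved none of the 18 ratios by more than 1 SD. A pooled ratio is a weighted mean of the same 3 library ratios, so it could hardly have moved further. The factors at 1 CPM or more numbered 60 under every alternative run, those at 10 CPM or more 57 or 58 and those at 100 CPM or more 43. Low counts limit Eif5a2, Eef2k and Eif2d. No paired analysis was possible because the columns of the STING-N153S samples could not be told apart, so the replicate block, other scalings, DESeq2, filters and left-out replicates of that comparison were not run.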
